A study of Rattus norvegicus with 48 samples.

Results

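The miRNAs of the imprinted Dlk1-Dio3 locus were followed through all 48 rat liver libraries of this thioacetamide (TAA) study. Members were chosen by name: every mature miRNA, of either arm, that carries a miRNA number known from the locus. The rule took 82 of the 764 mature miRNAs listed in the count file. Of these, 74 had a read in at least 1 library, 8 had none, and 6 reached the level at which miRNAs were tested: miR-127-3p, miR-434-3p, miR-136-3p, miR-136-5p, miR-411-5p and miR-541-5p. The other 76 members were below that level and are described by counts and sums.

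TAA is a compound that damages the rodent liver and causes liver tumors on long exposure. The animals were Sprague-Dawley males. Low dose was 4.5 mg/kg, middle dose 15 mg/kg and high dose 45 mg/kg, each given daily, and livers were taken at 3-d, 7-d, 14-d or 28-d of dosing. Each time had its own control group, given the vehicle without TAA. Of the 5 rats dosed per condition, 3 were profiled, which gives 16 groups of 3 libraries from whole liver. The age of the rats is not given in the sources used here. A difference in a bulk sample can come from a change in the number of cells of a type or in the RNA per cell, and these cannot be told apart.

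At the Dlk1-Dio3 locus, parental imprinting sets which chromosome is read: Dlk1, Rtl1 and Dio3, which encode proteins, are expressed from the paternal copy, and the noncoding RNAs, among them Meg3 and the miRNAs, from the maternal copy. The miRNAs are thought to be cut from long shared transcripts. They are abundant in the embryo, the placenta and the brain, fall in the liver as animals mature, and have been found raised in a subset of liver cancers.

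In the RefSeq annotation of GRCr8, all 80 members that could be matched by name lay on chromosome 6 between Dlk1 and Dio3. They formed a first stretch with 19 of the 82 members, beginning at Meg3 and holding miR-127, miR-434 and miR-136 within the span of Rtl1, and a second stretch from miR-379 to miR-410 with 63 members. Between the stretches lie small nucleolar RNA genes. The labels name another build, rn5, and the count file holds no positions, so coordinates are not given. The first stretch held 4 of the 6 tested members and 68.2% of all member reads, and the second stretch held miR-411-5p, miR-541-5p and 31.8% of the reads.

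The sequences of the tested members are shown because every comparison of the cluster in these data rests on them (RefSeq, GRCr8, 5′ to 3′). The seed, bases 2 to 8 of the miRNA and the part that pairs with target mRNAs, is in capitals.
miR-127-3p: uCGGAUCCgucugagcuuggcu
miR-434-3p: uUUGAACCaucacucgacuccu
miR-136-3p: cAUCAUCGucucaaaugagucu
miR-411-5p: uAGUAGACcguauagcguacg
miR-541-5p: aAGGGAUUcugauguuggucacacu
The sixth tested member is miR-136-5p, the other arm of the miR-136 hairpin. No seed was shared among these sequences. Over the 80 members with a sequence there were 74 seeds, of which 5 were shared by more than 1 member.

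The cluster was a rare class in these livers. All members together had 35634 reads, 0.00734% of the reads counted on miRNAs, and the 6 tested members held 86.1% of them. miR-127-3p, which lies antisense to Rtl1 and can direct cleavage of its mRNA, had 38.6% of the member reads. miR-434-3p, also antisense to Rtl1, and miR-411-5p of the second stretch had 16.5% each. These 3 miRNAs mark the cluster, and they were also its only members with a read in every library. miR-136-3p followed with 6.99%, miR-541-5p with 4.80% and miR-136-5p with 2.65%. Of the 76 other members, 33 had under 10 reads in all 48 libraries, 25 had 10 to 99 and 18 had 100 or more.

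The arm that was kept differed between hairpins. Of the 15 precursors with at least 100 reads and both arms listed, 10 had more reads from the 3′ arm and 5 from the 5′ arm. The 3′ arm had 99.6% of the reads of miR-127, 96.1% of those of miR-434 and 72.5% of those of miR-136. It had 1.80% of the reads of miR-411 and 0.291% of those of miR-541.

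Library totals ran from 293331 to 14906217 counts with a median of 10237542. The lowest total belonged to control 3-d replicate 1, and the next was 4829217. In that shallow library miR-136-3p, miR-136-5p and miR-541-5p had no read, and 3 reads, which is what a count of 0 allows, equal 10.2 RPM there. The summed red blood cell markers (miR-451-5p, miR-144-3p, miR-144-5p and miR-486) stood at 81096 normalized RPM against 4426 and 6781 in the other 3-d controls. Calls at 3-d and control changes from 3-d are therefore given with and without it. RPM is a library's reads scaled to a common total, and normalized RPM is RPM after upper quartile scaling. The defining liver markers miR-122-5p, miR-192-5p and miR-194-5p summed to between 102809 and 381027 normalized RPM over the 48 libraries.

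In control liver the cluster fell with time on study. The summed level of all 82 members was 76.1, 225 and 68.3 normalized RPM in the 3 controls at 3-d and 80.8, 94.2 and 77.1 at 7-d. At 14-d it was 21.9, 27.7 and 29.96, and at 28-d it was 31.3, 22.1 and 24.7. No control at 14-d or 28-d reached the lowest control of 3-d or 7-d. The 28-d mean was 0.211 times the 3-d mean. The log2 ratio of these means was −2.24, −2.496 without the shallow library and −1.47 without control 3-d replicate 2, the highest library.

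All 6 tested members were lower in control liver at 28-d than at 3-d, by edgeR's quasi-likelihood F-test with Benjamini-Hochberg adjusted p-values between 0.0130 and 0.0423. Of all 301 tested miRNAs, 3.65% were lower at that threshold. The largest drop was that of miR-411-5p, which stood at 16.9, 38.001 and 9.80 normalized RPM at 3-d and at 2.79, 1.32 and 3.28 at 28-d. Its log2 fold change was −3.22 with an SE of 0.51. The smallest was that of miR-127-3p, with 25.4, 85.0 and 20.5 at 3-d and 15.6, 12.03 and 7.30 at 28-d, a log2 fold change of −1.98 ± 0.47 (SE). The groups of both miRNAs did not overlap. The share of all miRNAs without such overlap between control times was not computed. Without control 3-d replicate 2 the log2 fold change was −0.90 for miR-127-3p and −2.23 for miR-411-5p, and all 6 members were still called lower by the DEM criteria. Without the shallow library log2 fold changes ran from −3.31 to −2.16 and all 6 adjusted p-values were between 0.00150 and 0.00658.

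The control levels were already low at 14-d. At that time, 5 of the 6 were below their 7-d level at an unadjusted p below 0.05 and a fold change above 1.5, the study's criteria for a differentially expressed miRNA (DEM), where 2.99% of all tested miRNAs were lower. With edgeR, no member and none of the 301 miRNAs had an adjusted p below 0.05, and 18 miRNAs had an unadjusted p below 0.05. With DESeq2's Wald test 7 miRNAs passed after adjustment, 3 of them members. miR-434-3p went from 15.0, 19.97 and 18.3 normalized RPM to 2.73, 4.09 and 5.17, a log2 fold change of −2.14 ± 0.43 (SE). miR-136-5p was the exception, at −0.78 ± 0.60. At 28-d against 7-d, 5 of 6 were again lower (background 8.31%), and miR-136-3p, miR-411-5p and miR-434-3p had adjusted p-values below 0.05 (background 1.33%). miR-541-5p, at −1.23 ± 0.58, did not pass.

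**Figure D1:**
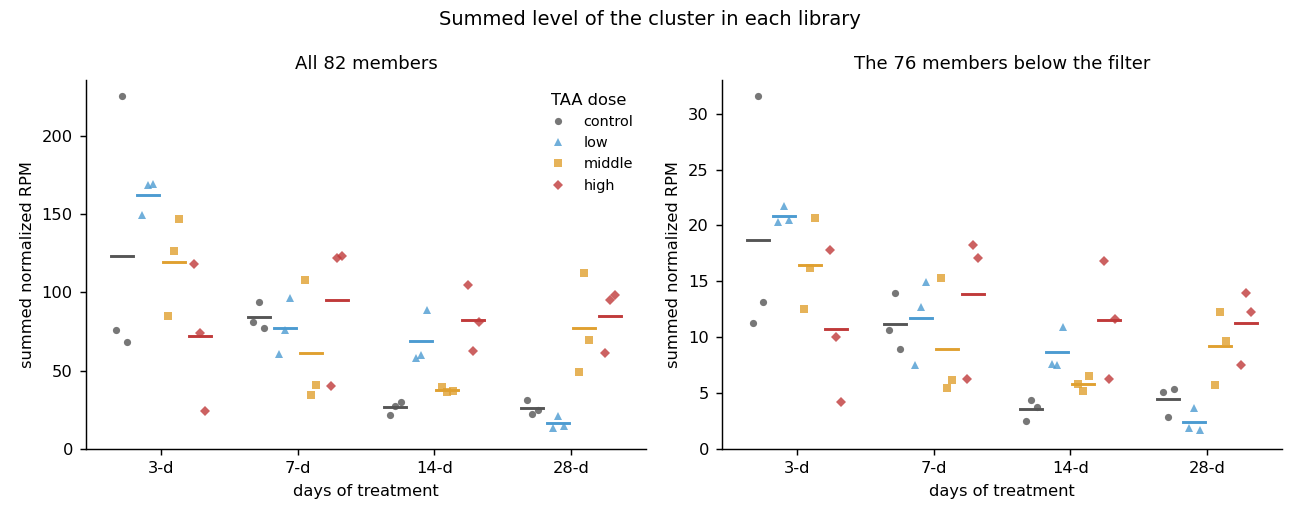
Summed normalized RPM (linear axis) in each library against days of treatment, for all 82 members (left) and for the 76 members below the filter (right). Points are libraries, 3 per group, and bars are group means. Controls stand between 21.9 and 31.3 for all members at 14-d and 28-d, while high dose libraries stand between 61.5 and 105.

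In high dose rats the cluster did not follow the controls down. The summed level was 118, 74.3 and 24.2 normalized RPM at 3-d, 40.4, 122 and 123 at 7-d, 105, 62.2 and 81.3 at 14-d, and 61.5, 95.2 and 98.4 at 28-d. The 28-d mean was 1.18 times the 3-d mean. Against the matched controls the summed level was 3.12-fold at 14-d and 3.26-fold at 28-d, and no treated library overlapped with a control at either time. At 3-d the high dose rats differed among themselves by a factor of 4.89, and at 3-d and 7-d the treated libraries overlapped with the controls.

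All 6 tested members were DEMs with higher levels at high dose for 14-d and again at 28-d. The share of all 301 tested miRNAs that were higher DEMs was 5.65% at 14-d and 13% at 28-d. With adjusted p-values, 3 of 6 members passed at 14-d (background 1.33%) and 5 of 6 at 28-d (background 1.99%). The median log2 fold change of the 6 was 1.84 at 14-d and 2.04 at 28-d, and the median over all tested miRNAs was −0.04 and 0.06. With each library left out in turn, 6 of 6 were called at 28-d each time and 5 or 6 at 14-d.

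miR-434-3p had the smallest p-value of all tested miRNAs at high dose for 14-d. It stood at 26.9, 13.5 and 23.02 normalized RPM in the treated rats and at 2.73, 4.09 and 5.17 in the controls. Every treated rat was above every control, as for 10.6% of all tested miRNAs in that condition. The log2 fold change was 2.40 ± 0.33 (SE, adjusted p = 0.0130 in edgeR's quasi-likelihood F-test). At 28-d the treated rats had 11.9, 15.2 and 16.7 against 5.25, 3.01 and 5.81, a log2 fold change of 1.65 ± 0.27 (adjusted p = 0.00753).

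The arms of miR-136 showed the largest changes at high dose for 28-d. miR-136-5p had 2.74, 2.85 and 4.39 normalized RPM in treated rats and 0.328, 0.376 and 0.596 in controls, where it rested on 4 reads in each library. Its log2 fold change was 2.98 ± 0.43 (SE), a 7.89-fold difference, with an adjusted p of 0.00304 in edgeR's quasi-likelihood F-test. miR-136-3p had 6.32, 5.51 and 6.32 in treated rats and 0.656, 1.13 and 1.49 in controls, a log2 fold change of 2.53 ± 0.32 (adjusted p = 0.00168). Both arms of this hairpin were therefore higher, and the 3′ arm had more reads in every high dose group. At 14-d the changes were 1.85 ± 0.58 and 1.82 ± 0.52, with adjusted p-values of 0.136 and 0.112. At 14-d a treated library with 2.73 normalized RPM of miR-136-3p was below the highest control at 3.07.

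miR-411-5p, the leading member of the second stretch, was higher at both late times. High dose rats had 14.6, 10.9 and 13.8 normalized RPM at 14-d and 10.9, 14.0 and 14.4 at 28-d. Controls had 2.95, 3.78 and 5.17 at 14-d and 2.79, 1.32 and 3.28 at 28-d, and the groups did not overlap at either time. Of all tested miRNAs, 10.6% were higher without overlap at 14-d and 21.6% at 28-d. The log2 fold changes were 1.72 ± 0.26 (SE, adjusted p = 0.0130) and 2.43 ± 0.31 (adjusted p = 0.00168), both from edgeR's quasi-likelihood F-test.

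miR-127-3p had the smallest fold change of the 6 at 14-d. It had 29.5, 23.6 and 18.7 normalized RPM in high dose rats against 12.2, 12.1 and 10.1 in controls at 14-d, and 20.2, 38.9 and 40.9 against 15.6, 12.03 and 7.30 at 28-d. The groups did not overlap at either time, where 10.6% and 21.6% of all tested miRNAs were higher without overlap. The log2 fold changes were 1.06 ± 0.21 (SE, adjusted p = 0.0489) and 1.498 ± 0.32 (adjusted p = 0.0299), both from edgeR's quasi-likelihood F-test. miR-541-5p had 6.58, 3.12 and 2.18 against 0.328, 1.26 and 1.40 at 14-d, and 1.90, 4.75 and 3.43 against 1.64, 1.41 and 0.893 at 28-d. Its changes of 1.959 ± 0.58 and 1.29 ± 0.41 met the DEM criteria, but their adjusted p-values were 0.121 and 0.0902.

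**Figure D2:**
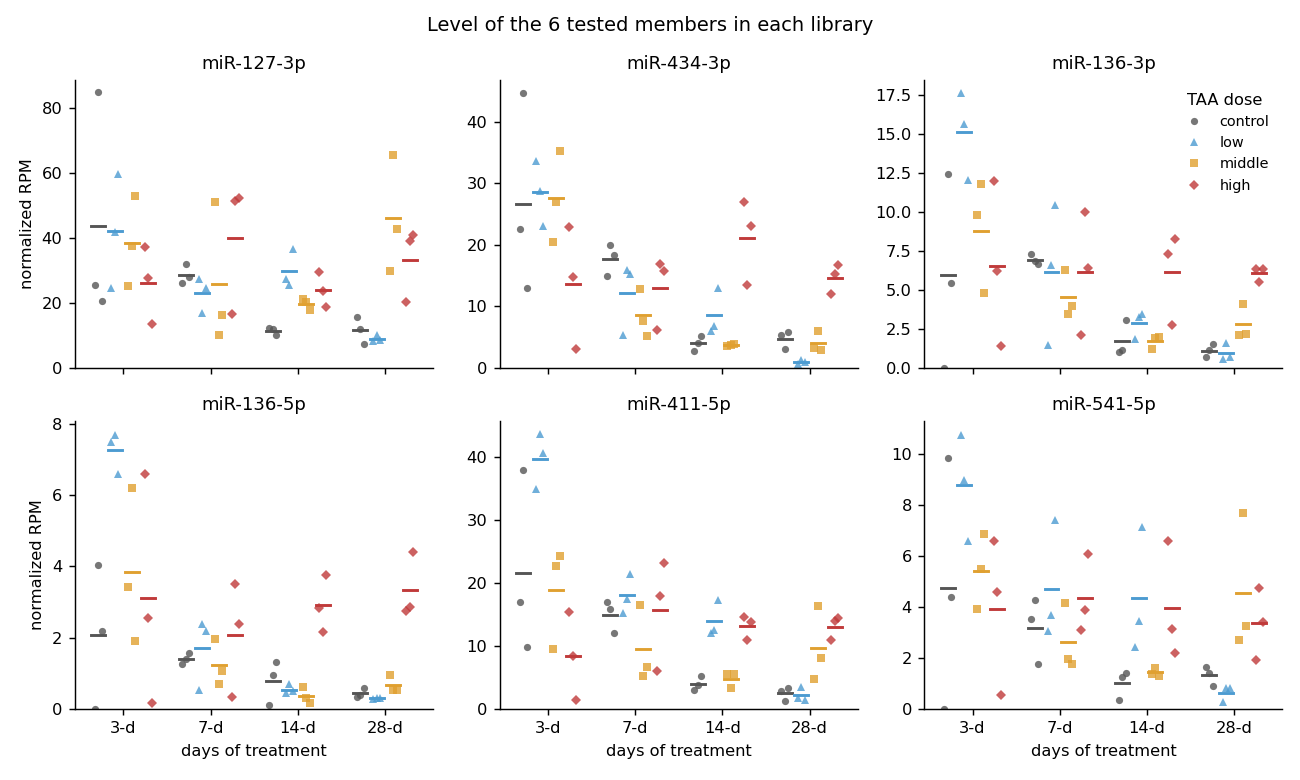
Normalized RPM (linear axes, scaled separately) of the 6 tested members in each library against days of treatment. Points are libraries, 3 per group, colored by dose, and bars are group means. At 14-d and 28-d the control means of the 6 members lie below the high dose means.

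At middle dose 4 members were higher, and this at 28-d. At 3-d no member was a DEM (background 2.99%), with or without the shallow library, by edgeR or by DESeq2's Wald test, and none had an unadjusted p below 0.05. At 14-d only miR-127-3p was higher (background 12%), at 21.3, 20.4 and 17.7 normalized RPM against 12.2, 12.1 and 10.1. Without control 14-d replicate 13, 2 members were DEMs there, a count that holds both directions. At 28-d, 4 of 6 members were higher DEMs (background 20.9%), and the same 4 had an adjusted p below 0.05. miR-127-3p had its highest mean of the 16 groups there, with 29.9, 65.6 and 42.9 against 15.6, 12.03 and 7.30. Its log2 fold change was 1.965 ± 0.32 (SE), that of miR-411-5p was 2.001 ± 0.46, that of miR-541-5p 1.72 ± 0.45 and that of miR-136-3p 1.42 ± 0.42. miR-136-5p, at 0.70 ± 0.58, and miR-434-3p, at −0.21 ± 0.34, did not pass. For miR-434-3p the treated rats had 3.25, 5.91 and 2.92 normalized RPM, which overlapped with the controls.

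At middle dose for 7-d, 2 members were lower DEMs (background 3.99%). miR-434-3p had 12.8, 7.57 and 5.24 normalized RPM against 15.0, 19.97 and 18.3, a log2 fold change of −1.05 ± 0.29 (SE, adjusted p = 0.0250 in edgeR's quasi-likelihood F-test). miR-136-3p had 6.28, 3.43 and 3.98 against 7.31, 6.84 and 6.64, a change of −0.60 ± 0.24 (adjusted p = 0.0923). That of miR-136-3p was no DEM with TMM normalization, with library size alone, with DESeq2's Wald test and with the precursors summed. Without middle dose 7-d replicate 34, which had the highest levels of its group, 4 members were lower DEMs.

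At low dose members were higher at 14-d, and at 28-d none was. Of the 6, 4 were higher DEMs at 14-d (background 22.9%), all with an adjusted p below 0.05. miR-541-5p had 2.44, 3.46 and 7.12 normalized RPM against 0.328, 1.26 and 1.40, a log2 fold change of 2.09 ± 0.53 (SE). miR-411-5p had 12.1, 12.5 and 17.3 against 2.95, 3.78 and 5.17, a change of 1.80 ± 0.28, and all treated rats were above all controls. That was so for 32.9% of all tested miRNAs in this condition. miR-127-3p changed by 1.38 ± 0.21 and miR-434-3p by 1.09 ± 0.35. Both arms of miR-136 were not called, at 0.69 ± 0.48 and −0.57 ± 0.77.

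At low dose for 28-d, 1 member was a lower DEM (background 8.64%). miR-434-3p had 0.530, 1.25 and 0.949 normalized RPM, from 6, 12 and 13 reads, against 5.25, 3.01 and 5.81 in controls. The log2 fold change was −2.36 ± 0.41 (SE), with an adjusted p of 0.0644 in edgeR's quasi-likelihood F-test. The groups did not overlap, and 17.6% of all tested miRNAs were lower without overlap in that condition. Only 1 other miRNA of the 301 had a smaller p-value there. All 6 members had fold changes below 1 there, as had 54.8% of all tested miRNAs. The summed level was 13.4, 20.96 and 14.4 against 31.3, 22.1 and 24.7, so the groups did not overlap in the sum either. Without control 28-d replicate 18 there were 3 lower DEMs, and without low dose 28-d replicate 29 there were 2. At low dose for 3-d, miR-136-5p alone was a higher DEM (background 9.97%), at 7.50, 7.69 and 6.59 normalized RPM against 0, 4.04 and 2.19, with a log2 fold change of 1.34 ± 0.47. miR-136-5p had at least 5 RPM in 5 libraries, 3 of them from this group, so that it entered the test through the group in which it was high, and the call is given as a value alone. Without the shallow control library it was 1.21. Without control 3-d replicate 3, or any of the 3 treated libraries, no member was called, and without control 3-d replicate 2 there were 3. At high dose for 3-d (background 11.3%) no member was called with or without the shallow library. At 7-d none was called at low dose (background 28.9%) or at high dose (background 21.3%). In these conditions no member had an unadjusted p below 0.05 in edgeR, and none was a DEM by DESeq2's Wald test. Without low dose 7-d replicate 46 there was 1, and without high dose 7-d replicate 25 there were 2.

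**Figure D3:**
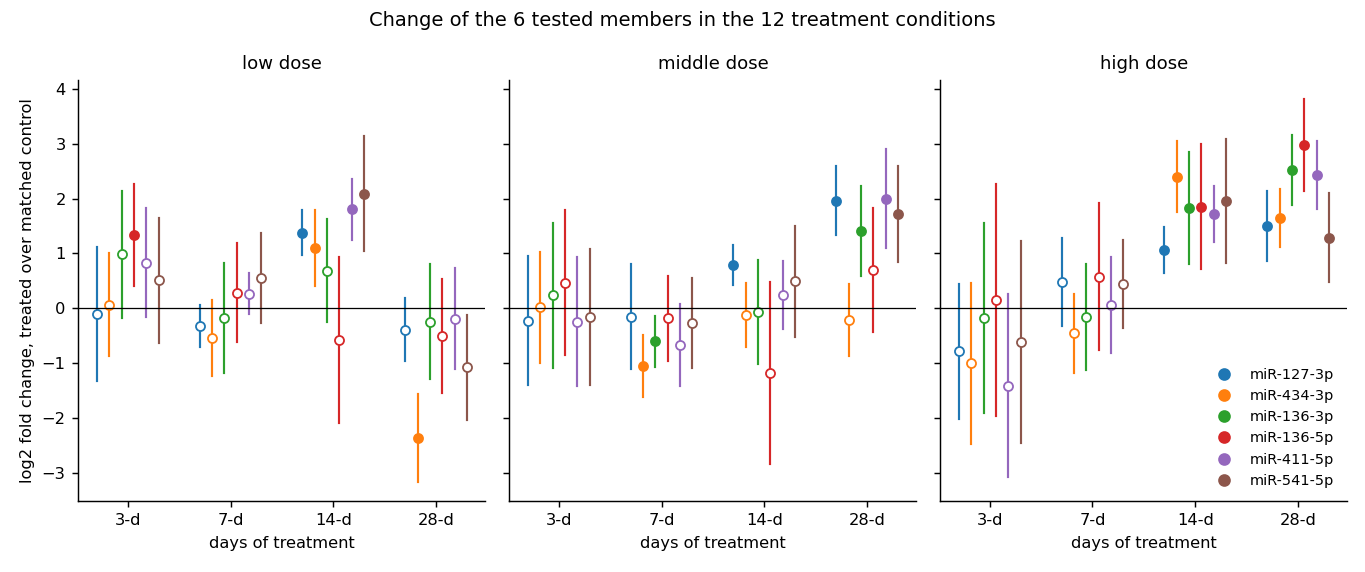
Log2 fold change of the 6 tested members against matched controls in the 12 treatment conditions, by dose (panels) and days (x axis). Bars are 95% intervals from the SE, and filled points met the DEM criteria. The 12 points of high dose at 14-d and 28-d are filled and positive, from 1.06 to 2.98.

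Over the 12 conditions, 25 of the 72 combinations of member and condition were DEMs, 22 higher (background 12.1%), the call of miR-136-5p at low dose for 3-d among them, and 3 lower (background 5.98%). With adjusted p-values 18 of 72 passed (background 15.3%). Of the combinations of all miRNAs and conditions, 18.1% were DEMs in either direction. Treated groups did not overlap with their controls in 26 of the 72 combinations, a share close to the 35.5% of all tested miRNAs. Doses at the same time share their controls, and the members vary together within groups. The 72 combinations are therefore not independent of each other.

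The control level of the cluster changed with time, so the conditions were also set against pooled controls. With all 12 controls pooled, 0 members were DEMs at high dose for 14-d, where 0.332% of all miRNAs were higher, and 1 was higher at 28-d, miR-136-5p at 1.38, where 3.32% were. The 12 fold changes at high dose for 14-d and 28-d stayed positive, from 0.01 to 1.38 on the log2 scale. The pooled controls gave 0 member DEMs at low dose for 14-d, where 18.3% of all miRNAs were higher and 4.98% lower, and at middle dose for 28-d, where 16.6% were higher and 5.65% lower. At low dose for 28-d they made all 6 members lower DEMs, where 5.32% of all miRNAs were lower.

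The doses were also compared with each other, in the fit of all 48 libraries, where the controls enter the spread but not the difference. At 28-d, 8 of 301 miRNAs (2.66%) differed between high and low dose at an adjusted p below 0.05, and 6 of the 8 were members. The other 2 were miR-122-3p, the passenger arm of the hepatocyte miRNA, and miR-24-2-5p, which were named after their values were seen. miR-434-3p differed most of all miRNAs, by 4.001 ± 0.58 on the log2 scale (SE, adjusted p = 1.26e-05 in edgeR's quasi-likelihood F-test). The others differed by 3.47 ± 0.79 (miR-136-5p), 2.75 ± 0.67 (miR-136-3p), 2.61 ± 0.59 (miR-411-5p), 2.38 ± 0.68 (miR-541-5p) and 1.89 ± 0.49 (miR-127-3p). Every high dose library exceeded every low dose library for all 6. The share of all miRNAs without such overlap between the doses was not computed. Against matched controls, a different comparison, it was 35.5% in either direction and 21.2% upward over the 12 conditions. Without a filter on low counts, 12 miRNAs (1.81%) differed, of which 9 were higher at high dose, and all 9 were members. Without low dose 28-d replicate 28 or replicate 30, miR-434-3p alone stayed below an adjusted p of 0.05, while the differences of the 6 ran from 1.84 to 4.05. The call of miR-541-5p (adjusted p = 0.0449 in edgeR's quasi-likelihood F-test) was lost with 19 of the 48 libraries left out in turn. That of miR-127-3p was lost with 4.

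At the other times the doses differed in fewer members. At 3-d, high dose was below low dose for miR-411-5p, by −2.25 ± 0.55 (SE, adjusted p = 0.00835 in edgeR's quasi-likelihood F-test), with 15.4, 8.33 and 1.32 normalized RPM against 34.9, 43.7 and 40.6 (background 4.65%). The other 5 members had log2 differences from −1.23 to −0.69 and did not pass. At 14-d, miR-136-5p was higher at high dose, by 2.42 ± 0.78 (adjusted p = 0.0270), where 2.99% of all miRNAs were higher. Without high dose 14-d replicate 9, low dose 14-d replicate 40 or low dose 14-d replicate 41 no member passed, and without any 1 of the 3-d controls 2 passed. At 7-d no member passed (background 8.64%), with edgeR or DESeq2's Wald test, none had an unadjusted p below 0.05, and the log2 differences lay between −0.20 and 0.80.

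Averaged over the 4 times, the high dose raised 3 members at an adjusted p below 0.05 (background 21.6%): miR-136-5p by 1.37 ± 0.36 (SE), miR-136-3p by 0.97 ± 0.31 and miR-434-3p by 0.64 ± 0.24, in the edgeR fit of all 48 libraries. Without high dose 3-d replicate 22 only 1 member passed, and without control 3-d replicate 2 or high dose 3-d replicate 24 all 6 did. The middle dose average passed for no member in edgeR (background 36.5%, either direction), with 1 at an unadjusted p below 0.05 and 1 after adjustment in DESeq2's Wald test. The low dose average passed for miR-411-5p, by 0.67 ± 0.28 (background 28.6%), a call that was lost with 23 of the 48 libraries left out in turn, the shallow library among them. The high dose exceeded the low dose on average for miR-136-5p (1.24 ± 0.36) and miR-434-3p (1.08 ± 0.25, background 19.6%). For the mean effect of the 3 doses at 28-d minus that at 7-d, 0 of the 301 miRNAs (0%) passed in edgeR, and 25 had an unadjusted p below 0.05, 2 of them members. DESeq2's Wald test gave 5 miRNAs, of which 0 were members.

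The dose effects were also compared between late and early times. The mean effect of the high dose at 14-d and 28-d exceeded that at 3-d and 7-d in all 6 members, by 1.46 to 2.76 on the log2 scale, with adjusted p-values from 0.00014 to 0.0417 (background 4.65%). The comparison was chosen after the values were seen. It rests in part on control 3-d replicate 2, high dose 28-d replicate 21 and high dose 7-d replicate 25, without any of which 3 of 6 members passed. The same comparison passed in edgeR for no member at middle dose (background 2.33%), where 3 had an unadjusted p below 0.05 and DESeq2's Wald test gave 2. Without the shallow library 1 member passed at middle dose. At low dose (background 2.66%) all of these counts were 0.

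The 76 members below the filter were too few in reads to test with the others. Their summed level was 5.09, 2.82 and 5.36 normalized RPM in 28-d controls and 7.54, 14.0 and 12.2 in high dose rats at 28-d, and the groups did not overlap. At 14-d it was 3.77, 2.51 and 4.404 in controls and 11.6, 6.24 and 16.8 at high dose. In 3-d controls it was 11.3 in the shallow library and 31.6 and 13.1 in the others. Tested without a filter, 9 of these members were higher DEMs at high dose for 14-d and 6 at 28-d, and none was a lower DEM. With the tested members that was 15 of 74 and 12 of 74, and the background without a filter was 4.07% and 5.42%. miR-376b-3p, miR-376b-5p, miR-382-3p, miR-411-3p and miR-431 were on both lists and are named after their values were seen.

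Members with the highest single-library RPM among these were miR-299a-5p, miR-409a-5p, miR-341, miR-409a-3p and miR-300-3p. For 3 of them that library was the shallow control, where they had 1 or 2 reads, so these RPM values rest on almost no reads. miR-300-3p peaked at 30 reads in control 3-d replicate 2. miR-409a-5p peaked at 70 reads in high dose 7-d replicate 26, where the other rats of its group had at most 3 reads. It had 0 reads in the 14-d controls, 1 read in the 28-d controls, and 37 to 58 reads in the middle dose groups of 7-d, 14-d and 28-d.

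**Figure D4:**
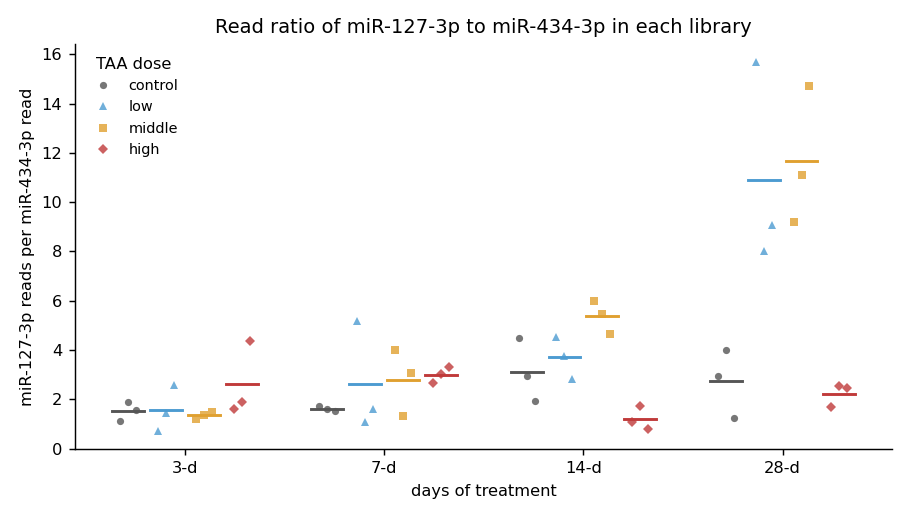
Reads of miR-127-3p per read of miR-434-3p (linear axis) in each library against days of treatment. Points are libraries, 3 per group, and bars are group means of the ratio. Low dose and middle dose libraries at 28-d stand between 8.00 and 15.7, above every other library.

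The members did not keep a fixed proportion. miR-127-3p and miR-434-3p are neighbours antisense to Rtl1, and a ratio of their reads within a library needs no scaling. It was 1.13 to 1.90 in 3-d controls, 1.52 to 1.75 in 7-d controls, 1.95 to 4.48 in 14-d controls and 1.26 to 4 in 28-d controls. At 28-d it was 8.00 to 15.7 at low dose and 9.19 to 14.7 at middle dose, and 1.69 to 2.56 at high dose. At low dose this went with 31 reads of miR-434-3p over the 3 rats, and at middle dose with 171. The ratio was looked at after the values were seen and was not tested. A ratio shows unequal change of the pair and not which of them changed.

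Rats of the same group that were high in a member were high in the others. Taking the deviation of each library from its group mean on the log2 scale, Pearson's r over the 48 libraries was 0.370 to 0.873 for the 15 pairs of tested members, with a median of 0.619. The median was 0.684 without the shallow library. Pairs of other tested miRNAs had a median of 0.0658, and pairs of a member with another miRNA 0.130. Single miRNAs outside the cluster were also set against the mean deviation of the 6 members. The highest r was 0.699 for miR-146b-5p, then 0.688 for miR-93-5p, 0.632 for miR-152-5p, 0.623 for miR-132-3p and 0.622 for miR-17-5p. They are named here after their values were seen. An r against a mean of 6 is another measure than the r of a pair and cannot be ranked against it. Across the 16 group means, r between members was 0.597 to 0.921. These are descriptions over libraries that share depth and scaling. They bear on the spread within groups: the sum of all members differed between rats of a group by a factor of up to 4.89 at high dose for 3-d, 3.30 in 3-d controls and 3.13 at middle dose for 7-d.

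Markers of other cells were measured beside the high dose change. The 5 stellate and smooth muscle markers, of which miR-214-3p and miR-199a mark the cells that form scar tissue, summed to 43625 to 44641 normalized RPM in 14-d controls and 40236 to 45070 at high dose. At 28-d they were 26572 to 43917 in controls and 41762 to 50135 at high dose. At 14-d, 3 of the 5 were lower DEMs, and at 28-d miR-214-3p was a higher DEM. Of all tested miRNAs, 5.65% were higher and 3.65% lower DEMs at 14-d, and 13% were higher and 2.33% lower at 28-d. Of the 3 tested brain and nerve markers, 1 was higher at 14-d (miR-9a-5p) and 1 lower at 28-d (miR-128-3p), and the list summed to 196 to 197 at 14-d and 142 to 147 at 28-d in high dose rats against 174 to 219 and 158 to 237 in controls. The 4 leukocyte markers held 1 lower DEM at 28-d, miR-150-5p. Among muscle markers, miR-208a-3p was at 0 and miR-133a-3p was lower at 28-d. No hepatocyte, endothelial, red blood cell, pancreas or bile duct marker that was tested was a DEM at high dose for 14-d or 28-d. The part of these cells in the result was not tested.

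The locus holds further miRNAs that the rule did not name. Of 20 such neighbours in the file, 11 had reads, 393 in all, and none reached the level for testing. Of the 9 miRNAs listed for other imprinted loci, only miR-335, from Mest, was tested. Its log2 fold change was 0.36 ± 0.21 (SE) at high dose for 14-d, 0.19 ± 0.18 at 28-d and 0.06 ± 0.45 between 28-d and 3-d controls, and it was not called in these 3 comparisons. It was a lower DEM at low dose for 7-d and 14-d, at middle dose for 28-d and at high dose for 7-d, with log2 fold changes from −1.002 to −0.69. In the fit of all 48 libraries it was higher at high than at low dose at 14-d, by 1.04 ± 0.34 (edgeR, adjusted p = 0.0272), and on average, by 0.44 ± 0.17 (adjusted p = 0.0374), and at 28-d the difference was 0.83 ± 0.34 (adjusted p = 0.188).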

How the data were processed

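Small RNA from rat liver was sequenced in 48 libraries. Adaptors were trimmed by the authors and reads of 18 to 25 bases retained, with quality checks in FastQC and counting by miRDeep2 on miRBase release 21. The deposited values are raw counts, not normalized and not filtered. Per the labels, rn5 was the genome build.

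Mature miRNAs listed for several precursors took the count of whichever precursor had the highest total. The 301 miRNAs with at least 5 RPM in at least 3 libraries were tested by the quasi-likelihood F-test of edgeR (version 4.0.16, under R 4.3.3) after upper quartile normalization, for conditions in fits of 6 libraries, for averages and differences in a fit of all 48, and for control times in a fit of the 12 controls. A DEM had an unadjusted p below 0.05 and a fold change above 1.5. Averages and differences were called at a Benjamini-Hochberg adjusted p below 0.05. SEs came from the log2 fold change and F. The members and lists were chosen with earlier results of these data known. Named members are the 6 tested and, of the others, the 5 with the highest RPM, and 5 more were named after their values were seen. A count of 3 was taken as the limit of detection and covers counting error only. The fits were checked on simulated data with the same dispersion for all miRNAs, so the rates do not describe the members, which vary more between rats in some groups. In a simulated high dose 28-d comparison of 301 miRNAs, 35 of 35 with a 4-fold change and 37 of 51 with a 2-fold change met the DEM criteria, as did 5 of 215 unchanged. For high minus low dose at 28-d, 34 of 35 and 24 of 51 passed, and 0 of 215 unchanged. Alternatives were TMM, DESeq2's size factors, library size alone, other filters, DESeq2 1.42.0, summed precursors, pooled controls, a single fit of 48 libraries, the other threshold and each library left out. Labels do not say that rats were caged or processed apart, so p-values measure the spread between these samples. Tables used Python 3.11.15.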

Additional observations from a re-analysis of the deposited data

Results flagged for a closer look

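Members were flagged where a treatment effect differed between doses or times by a test of the difference itself (edgeR's quasi-likelihood F-test, adjusted p below 0.05, log2 scale). At 28-d, high dose exceeded low dose by 1.89 for miR-127-3p, 2.75 for miR-136-3p, 3.47 for miR-136-5p, 2.61 for miR-411-5p, 4.001 for miR-434-3p and 2.38 for miR-541-5p. Without low dose 28-d replicate 28 or 30 only miR-434-3p passed. The call of miR-541-5p was lost with 19 of the 48 libraries left out in turn. At 14-d the difference was 2.42 for miR-136-5p, and it did not pass without high dose 14-d replicate 9 or low dose 14-d replicate 40, 41 or 42. At 3-d it had the opposite sign, −2.25 for miR-411-5p. Averaged over the 4 times, high dose exceeded low dose by 1.24 for miR-136-5p and 1.08 for miR-434-3p.

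The high dose effect at 14-d and 28-d exceeded that at 3-d and 7-d by 1.46 for miR-127-3p, 2.39 for miR-136-3p, 2.08 for miR-136-5p, 2.76 for miR-411-5p, 2.76 for miR-434-3p and 1.77 for miR-541-5p. This contrast was chosen after the values were seen, and it takes in the fall of the controls between 7-d and 14-d. Without control 3-d replicate 2, high dose 28-d replicate 21 or high dose 7-d replicate 25, 3 of the 6 members passed.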

How the results depend on the processing

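No called member changed direction under the other alternatives run. Reversals came from pooling the 12 controls, where the log2 fold change was −0.57 for miR-434-3p at low dose for 14-d, 0.12 for miR-136-3p at middle dose for 7-d, −0.26 for miR-127-3p at middle dose for 14-d, and −0.59 for miR-136-3p and −0.10 for miR-411-5p at middle dose for 28-d. With pooled controls 4 members were higher DEMs at low dose 3-d (background 15.3%), 1 at middle dose 3-d (7.64%) and 1 at high dose 28-d (3.32%). At low dose 28-d 6 were lower (5.32%). At middle dose 14-d 2 were lower (4.65%), miR-136-5p and miR-434-3p, and miR-127-3p was not called. No member was called at low dose 14-d (18.3% higher, 4.98% lower) or middle dose 7-d (8.31% and 4.32%). The same held at middle dose 28-d (16.6% and 5.65%) and high dose 14-d (0.332% and 0%). The pooled controls include the 3-d and 7-d libraries, whose levels were above those of 14-d and 28-d. For the other alternatives the cause was not tested.

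Without a filter, 74 members were tested and counts were 4 and 7 at low dose 3-d and 14-d, 1, 6, 3 and 11 at middle dose and 8, 2, 15 and 12 at high dose from the earliest to the latest time, 0 and 1 in the low and middle dose averages, 2, 2 and 5 for high minus low dose at 3-d, at 14-d and on average, 16 for late minus early times at high dose, and 15, 15 and 23 in the control comparisons. These counts hold both directions: 3 of the 4 at low dose 3-d, 1 of 1 at middle dose 3-d, 5 of the 6 at middle dose 7-d, 8 of 8 at high dose 3-d, 1 of 2 at high dose 7-d and all in the control comparisons were lower. Of all 664 miRNAs, 19.1% were called at low dose 14-d and 21.1% at middle dose 28-d, so the counts of 7 and 11 of 74 there were not above that share. Of all 664 miRNAs, 23.2% and 16.1% were called in the low and middle dose averages. For high minus low dose at 3-d, at 14-d and on average 3.77%, 4.07% and 12.3% were called. For late minus early times at high dose it was 8.89%, and in the control comparisons 5.12%, 10.1% and 23%. With at least 5 RPM in every library only miR-127-3p was left. It was called (1) at low dose 14-d, middle dose 14-d and 28-d, high dose 14-d and 28-d, in the middle dose average, for high minus low dose at 28-d, for late minus early times at middle and high dose and in the 3 control comparisons, and the count was 0 at low dose 3-d and 28-d, middle dose 7-d, in the low and high dose averages and for high minus low dose at 3-d, 14-d and on average. With adjusted p-values the counts were 0 at low dose 3-d and 28-d, 1 at middle dose 7-d, 3 at high dose 14-d, 0 for controls at 14-d against 7-d and 3 at 28-d against 7-d. With unadjusted p and fold they were 5 for the high dose average, 4 and 2 for high minus low dose at 3-d and 14-d, 2 for 28-d minus 7-d and 3 for late minus early times at middle dose.

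A single fit of all 48 libraries gave 0 at low dose 3-d, 1 at middle dose 7-d, 0 at middle dose 14-d and 2 at high dose 3-d. TMM, library size alone, DESeq2's Wald test and summed precursors each gave 1 at middle dose 7-d and 1 in the middle dose average. With these 4 and DESeq2's size factors, high minus low dose at 14-d gave 2, and late minus early times at middle dose gave 1 with TMM, summed precursors and DESeq2's size factors and 2 with the others. The low dose average gave 0 with summed precursors, library size alone and DESeq2's size factors, and the high dose average gave 6 with library size alone. Scaling moved the median of all miRNAs by up to 0.36 on the log2 scale (library size alone, high minus low dose at 14-d) and by 0.21 at high dose for 14-d, where with that scaling members changed by 1.28 to 2.63.

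With each library left out, the number of called members ran from 0 to 3 (low dose 3-d), 0 to 1 (low dose 7-d), 3 to 5 (low dose 14-d), 1 to 3 (low dose 28-d), 1 to 4 (middle dose 7-d), 1 to 2 (middle dose 14-d), 4 to 4 (middle dose 28-d), 0 to 2 (high dose 7-d), 5 to 6 (high dose 14-d), 6 to 6 (high dose 28-d), 0 to 1 (low and middle dose averages), 1 to 6 (high dose average), 1 to 2, 0 to 2, 1 to 6 and 2 to 3 (high minus low dose at 3-d, 14-d, 28-d and on average), 0 to 2 and 3 to 6 (late minus early times at middle and high dose), and 4 to 5, 4 to 6 and 6 to 6 (controls at 14-d against 7-d, 28-d against 7-d and 28-d against 3-d). The log2 ratio of the summed level was 1.44 to 1.81 at high dose 14-d and 1.59 to 1.89 at high dose 28-d, and it moved by less than the spread between rats with plain RPM and without miR-127-3p. No paired analysis was possible because the running numbers of the libraries are not shared between groups. In the 28-d controls miR-136-5p rested on 4 reads a library, which limits the precision of its fold change.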
